A study of Mus musculus with 2 samples.

Results

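The interleukin-1 (IL-1) family genes described here are 9 of the 28482 genes of the deposited count matrix, chosen by name: the ligands Il1a, Il1b and Il18, the receptor antagonist Il1rn, the receptors Il1r1, Il1rap, Il1rl1 and Il1r2, and Casp1, which encodes a ligand-processing protease and is itself neither a ligand nor a receptor. All 9 had counts in every mouse. The cells were CD45+ leukocytes from the spinal cords of C57BL/6 mice 15 days after induction of experimental autoimmune encephalomyelitis (EAE), a model of multiple sclerosis in which T cells attack myelin. The groups were 2 inhibitor-treated mice and 2 untreated mice, and EAE had been induced in all 4. The labels name neither the inhibitor nor its target, dose or timing, and give no age. The series title also names STAP-1 mice, but the 4 mice used here are labelled C57BL/6 without a mutation. Antibody-borne hashtags marked the mice, whose cells were pooled on 1 BD Rhapsody run and amplified by TAS-Seq, so every value below compares mice within 1 library.

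About 28678 cells were loaded and the matrix held 25461 columns, of which 3943 (15.5%) carried more than 1 hashtag and were left out. After filters on mitochondrial counts and doublet calls 19243 cells were kept, 5438 and 4946 from the inhibitor-treated mice and 4306 and 4553 from the untreated mice, with 61680790 and 58743798 counts in inhibitor-treated mice and 48822695 and 54043573 counts in untreated mice. The 4 mice shared 0 cell barcodes. Ptprc, which encodes CD45, had 606 and 642 CPM (a gene's counts divided by all counts of the sum and scaled to 1000000) in the inhibitor-treated mice and 658 and 634 CPM in the untreated mice. The median mitochondrial share was 2.39% and 3.43% in inhibitor-treated mice, against 3.76% and 4.15% in untreated mice, and 3.82% and 4.35% of cells of inhibitor-treated mice were called doublets, against 8.83% and 8.13% of cells of untreated mice; the part of these differences in any result was not tested. Cells were clustered without the 9 genes and 33 further genes of the pathway, and the clusters were named by marker genes, so that a name means cells like that type. Neutrophils, which were split into precursor, immature, mature and inflammatory stages, made up 62.4% and 37.1% of the cells of the inhibitor-treated mice and 23.7% and 18.5% of the cells of the untreated mice.

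IL-1α and IL-1β, the products of Il1a and Il1b, bind the receptor IL-1R1, which recruits the accessory protein IL-1RAP and signals through MyD88 and IRAK kinases to NF-κB. IL-1Ra (Il1rn) occupies IL-1R1 without signalling, and IL-1R2 binds IL-1 as a decoy that lacks a signalling domain. IL-1β and IL-18 are made as precursors that caspase-1 cleaves in inflammasomes, and in EAE the IL-1 receptor on T cells is known for its part in the T helper 17 response.

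The genes lie in a few blocks of the GRCm38 genome. Il1b (chr2:129364570-129371139) and Il1a (chr2:129299610-129309972) are neighbours on the minus strand with 54597 bases between them, and Il1rn (chr2:24336853-24351494, plus strand) lies elsewhere on the same chromosome. Il1r2 (chr1:40074079-40125231), Il1r1 (chr1:40225080-40317257) and Il1rl1 (chr1:40429570-40465415) share a 478 kb stretch of chromosome 1 and the plus strand with Il1rl2, Il18r1 and Il18rap. Casp1 (chr9:5298517-5307265), Il18 (chr9:50554827-50581840) and Il1rap (chr16:26581704-26730117), all on the plus strand, stand apart from those blocks.

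The promoters of Il1b, Il1a and Il1rn are shown because the first and second are neighbours that were highest in different classes. Among the tested classes, Il1rn had its highest mean level in the same neutrophil stage as Il1b. Transcripts found together in single cells were not counted. Each run is 250 bases before to 50 bases after a RefSeq start (GRCm38.p6), read 5′ to 3′ on the gene's strand, with matches to the 4 motifs searched on both strands in capitals.
Il1b (chr2:129371090-129371389, minus strand): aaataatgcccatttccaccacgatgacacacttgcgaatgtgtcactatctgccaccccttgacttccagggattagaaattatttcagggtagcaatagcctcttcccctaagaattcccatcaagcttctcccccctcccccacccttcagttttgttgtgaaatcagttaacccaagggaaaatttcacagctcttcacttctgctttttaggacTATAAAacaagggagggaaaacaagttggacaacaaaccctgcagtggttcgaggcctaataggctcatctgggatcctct
Il1a (chr2:129309923-129310222, minus strand): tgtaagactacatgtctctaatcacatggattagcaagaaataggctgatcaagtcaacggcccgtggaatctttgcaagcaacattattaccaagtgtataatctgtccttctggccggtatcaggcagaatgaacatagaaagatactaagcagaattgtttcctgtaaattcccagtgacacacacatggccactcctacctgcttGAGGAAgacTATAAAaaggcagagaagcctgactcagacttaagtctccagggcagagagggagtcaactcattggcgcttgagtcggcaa
Il1rn, first of 3 starts (chr2:24336610-24336909, plus strand): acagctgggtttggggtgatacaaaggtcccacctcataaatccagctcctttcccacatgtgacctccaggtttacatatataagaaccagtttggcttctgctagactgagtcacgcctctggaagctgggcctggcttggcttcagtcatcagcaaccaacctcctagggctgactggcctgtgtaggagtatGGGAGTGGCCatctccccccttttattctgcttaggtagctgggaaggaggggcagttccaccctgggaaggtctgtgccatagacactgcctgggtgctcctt

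The TATAAA motif, which the general transcription machinery binds, began at -31 from the Il1b start and at -32 from the Il1a start, and was found in 13.6% of the 32817 promoters of the same length. GAGGAA, a core bound by PU.1, began at -41 in Il1a and was found in 28.3% of promoters, and a κB form bound by NF-κB began at -54 in the Il1rn window and was found in 20.7%. TTGCNNAA, a C/EBP form, was found in 10.8% of promoters and in none of these 3 windows. The capitals do not overlap one another, and a match describes letters, not a bound site. Over the 13 windows of all 9 genes, TATAAA matched in 4 genes, GAGGAA in 3, and TTGCNNAA and the κB form in 2 each. Some genes had more than 1 window, so these counts of genes are not comparable with the shares of promoters. The other TATAAA matches began at -175 in Il18 and at 15 in a window of Il1rn not shown here.

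**Figure D1:**
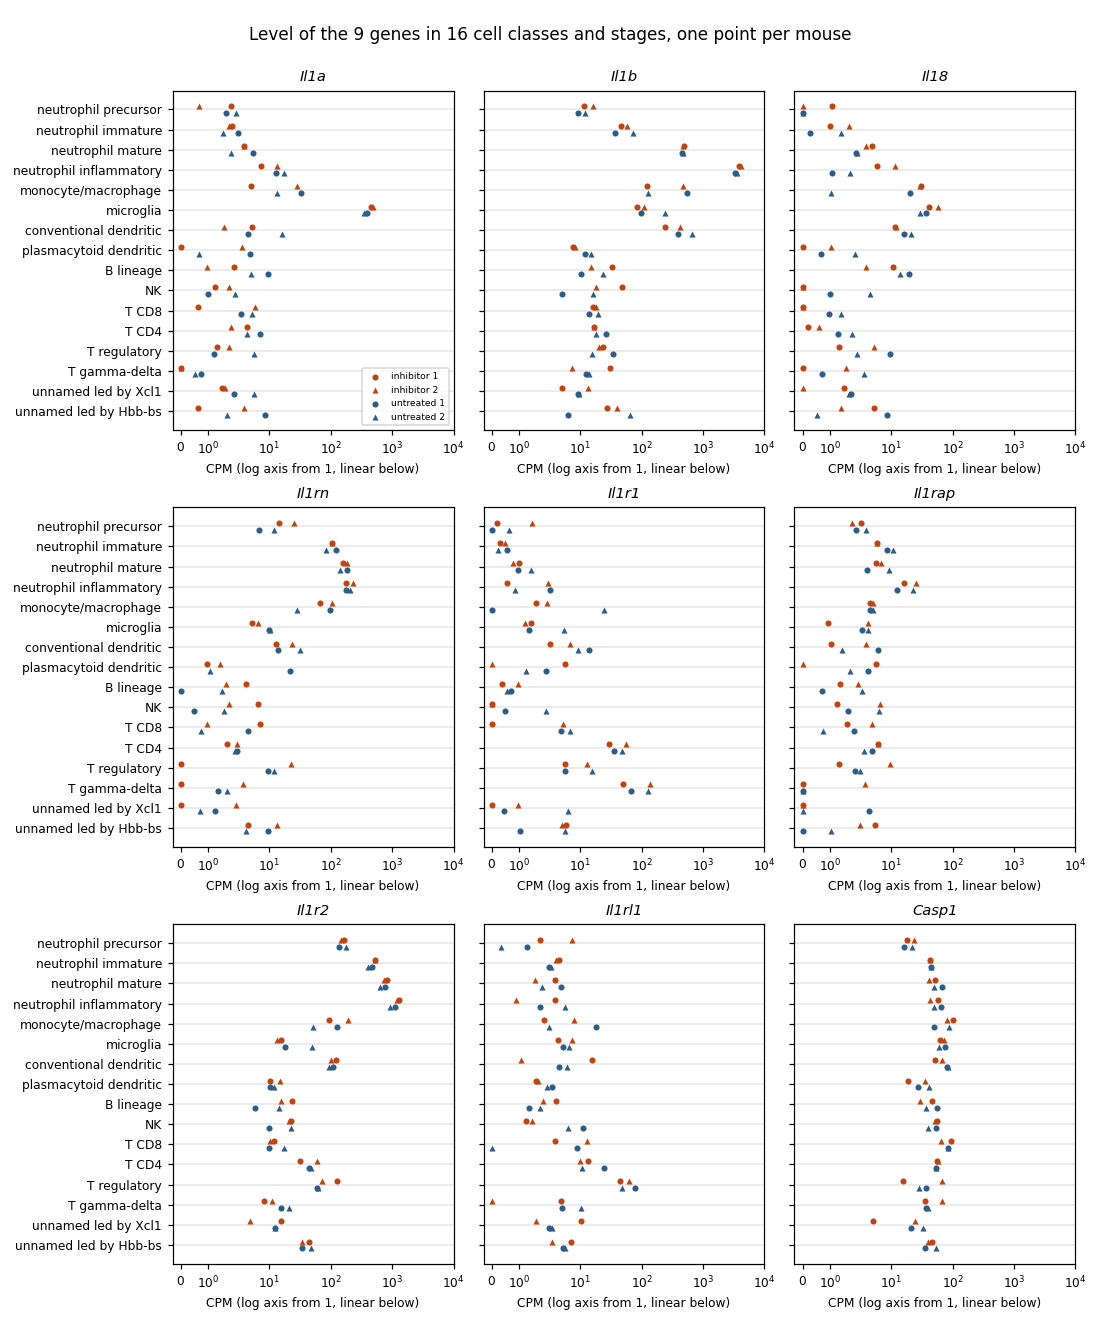
Level of each gene (x axis, CPM of the summed counts, log axis from 1 and linear below) in 16 cell classes and neutrophil stages (y axis), with 1 point per mouse, inhibitor-treated mice in red above untreated mice in blue. Il1b was highest in inflammatory neutrophils (3311 to 4192 CPM over the 4 mice), Il1a in microglia (347 to 482 CPM), Il1r1 in gamma-delta T cells (50.3 to 137 CPM) and Il1rl1 in regulatory T cells (44.6 to 78.1 CPM).

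Il1b, the ligand that caspase-1 activates, was highest in inflammatory neutrophils. Its level there was 3776 and 4192 CPM in inhibitor-treated mice and 3311 and 3508 CPM in untreated mice. This was 7.81 times the mean level of the next stage, mature neutrophils, which had 491 and 476 CPM in inhibitor-treated mice and 449 and 478 CPM in untreated mice, and the ranges of the stages did not overlap. Immature neutrophils had 46.3 and 56.5 CPM in inhibitor-treated mice against 36.1 and 73.2 CPM in untreated mice, and precursors 11.5 and 16.2 CPM in inhibitor-treated mice against 9.29 and 11.9 CPM in untreated mice. The stages stood in the same order in each of the 4 mice, precursor lowest and inflammatory highest. The stage was named by Cxcl2, Acod1 and other inflammatory genes, and Il1b led its genes although it took no part in the clustering.

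Outside neutrophils and among the tested classes, Il1b was highest in conventional dendritic cells. They had 236 and 422 CPM in inhibitor-treated mice and 387 and 663 CPM in untreated mice. This range overlapped those of mature neutrophils and of monocytes and macrophages. Monocytes and macrophages had 122 and 473 CPM in inhibitor-treated mice against 537 and 126 CPM in untreated mice, so that each group held 1 high and 1 low mouse. The small migratory dendritic cluster had 1 and 20 cells in inhibitor-treated mice and 14 and 8 in untreated mice, too few to test. Its Il1b was at 689 and 778 CPM in inhibitor-treated mice and 958 and 1770 CPM in untreated mice. Il1b counts were found in 84.3% and 85.8% of inflammatory neutrophils of inhibitor-treated mice and in 81.0% of those of each untreated mouse. They were also found in 6.66% to 8.5% of CD4 T cells, 4.28% to 10.95% of CD8 T cells and 5.81% to 7.48% of B-lineage cells at similar median depth per cell (5454 to 8262.5 counts). These shares were alike in the 3 lymphocyte classes, and the part of free RNA in them was not tested. With every cell thinned to 2000 counts the shares were 72.9% to 78.9% in inflammatory neutrophils and 2.22% to 3.12% in CD4 T cells.

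Single inflammatory neutrophils varied widely in Il1b. The median cell had 18 and 21 counts in inhibitor-treated mice and 13 and 19 counts in untreated mice, and the 10% of cells with the most counts held 39.9% and 38.3% of all Il1b counts of the stage in inhibitor-treated mice and 40.1% and 39.7% in untreated mice. In mature neutrophils the median cell had 0 counts in every mouse, and the top 10% held 68.0% and 65.2% of the counts in inhibitor-treated mice and 70.6% and 73.6% in untreated mice. Il1b was thus spread over most cells of the inflammatory stage and concentrated in a minority of the mature stage in all 4 mice.

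Il1a was highest in another class than its neighbour Il1b. Microglia held 443 and 482 CPM in inhibitor-treated mice and 384 and 347 CPM in untreated mice, 20.8 times the mean of the next tested class, monocytes and macrophages, whose 4 values ran between 5.07 and 33.2 CPM. A cluster led by Apoe and C1qa, in which T cell markers were detected as fully as microglia markers, so that it took no name, had 108 and 113 CPM in inhibitor-treated mice and 233 and 151 CPM in untreated mice. It had too few cells in an inhibitor-treated mouse to test. Inflammatory neutrophils, the main source of Il1b, had 7.29 and 13.1 CPM of Il1a in inhibitor-treated mice and 13 and 17.2 CPM in untreated mice. Counts of Il1a were found in 55.2% and 64.5% of microglia of inhibitor-treated mice and in 65.4% and 49.3% of microglia of untreated mice.

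Il18, whose product drives interferon-γ production by T and NK cells, was also highest in microglia among the tested classes, at 40.5 and 56.8 CPM in inhibitor-treated mice and 36.2 and 29.5 CPM in untreated mice. Monocytes and macrophages followed with 30.4 and 29.3 CPM in inhibitor-treated mice against 20.4 and 1.03 CPM in untreated mice, a range that overlapped that of microglia. Conventional dendritic cells had 11.5 to 20.6 CPM and B-lineage cells 3.86 to 19.5 CPM over the 4 mice. Every neutrophil stage stayed at or below 11.3 CPM of Il18.

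Il1rn, the antagonist, was highest, among the tested classes, in the inflammatory and mature neutrophil stages, without the step between them that Il1b showed. Inflammatory neutrophils had 178 and 233 CPM in inhibitor-treated mice and 178 and 207 CPM in untreated mice, and mature neutrophils 159 and 182 CPM in inhibitor-treated mice against 183 and 143 CPM in untreated mice, ranges that overlapped. The migratory dendritic cluster, too small to test, had 2658 and 294 CPM of Il1rn in inhibitor-treated mice and 139 and 553 CPM in untreated mice, from 251 counts in all. The 2658 CPM came from 1 cell, the single one of inhibitor-treated mouse 1 in that cluster. Immature neutrophils had 105 and 103 CPM in inhibitor-treated mice and 119 and 84.0 CPM in untreated mice, and precursors 14.2 and 25.1 CPM in inhibitor-treated mice against 6.64 and 11.9 CPM in untreated mice. The ratio of Il1rn to Il1b counts, which serves only to compare cells and mice because it is not corrected for length, was 2.27 and 1.83 in immature neutrophils of inhibitor-treated mice and 3.30 and 1.15 in those of untreated mice. It was 0.324 and 0.382 in inhibitor-treated mice against 0.409 and 0.30 in untreated mice in mature neutrophils, and 0.0470 and 0.0555 in inhibitor-treated mice against 0.0538 and 0.0590 in untreated mice in inflammatory neutrophils. The ratio was lower in inflammatory than in mature and lower in mature than in immature neutrophils in all 4 mice. Precursors did not continue this order. Their ratio was 1.23 and 1.55 in inhibitor-treated mice and 0.714 and 1 in untreated mice, below that of immature neutrophils in all 4 mice. Over all neutrophils it was 0.142 and 0.164 in inhibitor-treated mice and 0.189 and 0.130 in untreated mice (two-sided exact permutation test, p = 1), where 2 mice against 2 cannot give a p below 0.333.

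Il1r2, the decoy receptor, was lowest in precursors and higher in immature, mature and inflammatory neutrophils, in that order. The stages were named by markers, and their order in time was not tested. Precursors had 165 and 148 CPM in inhibitor-treated mice and 135 and 176 CPM in untreated mice. Immature neutrophils had 522 and 515 CPM in inhibitor-treated mice against 476 and 398 CPM in untreated mice. Mature neutrophils had 809 and 746 CPM in inhibitor-treated mice against 770 and 642 CPM in untreated mice, and inflammatory neutrophils had 1269 and 1181 CPM in inhibitor-treated mice against 1125 and 925 CPM in untreated mice. The ranges over the 4 mice of neighbouring stages did not overlap. Monocytes and macrophages had 93.2 and 189 CPM in inhibitor-treated mice and 128 and 51.2 CPM in untreated mice. Conventional dendritic cells had 121 and 102 CPM in inhibitor-treated mice and 108 and 91.9 CPM in untreated mice, and plasmacytoid dendritic cells 10.4 to 15.0 CPM.

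**Figure D2:**
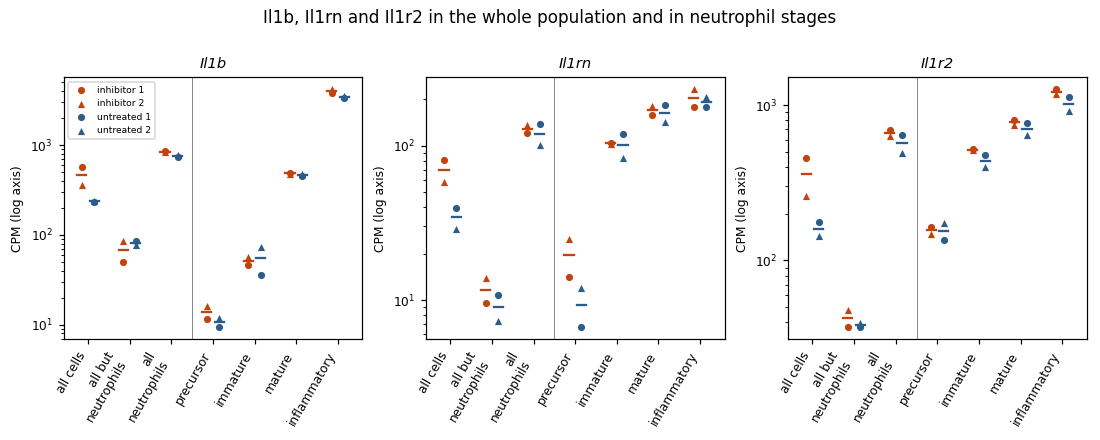
Levels of Il1b, Il1rn and Il1r2 (y axis, CPM, log scale) in all kept cells, all cells but neutrophils, all neutrophils and the 4 stages (x axis), with 1 point per mouse and a bar at each group's mean, inhibitor-treated mice (red) left of untreated mice (blue). In all cells the points of inhibitor-treated mice lie above those of untreated mice for the 3 genes (Il1b 564 and 356 in inhibitor-treated mice against 233 and 240 CPM in untreated mice), while in the inflammatory stage they lie nearer each other (3776 and 4192 in inhibitor-treated mice against 3311 and 3508 CPM in untreated mice).

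Il1r2 was also found in helper T cells, where its count relative to that of Il1b was, in each of the 4 mice, above that in all neutrophils (0.809 and 0.767 in inhibitor-treated mice and 0.888 and 0.629 in untreated mice). Regulatory T cells had 128 and 71.2 CPM in inhibitor-treated mice and 59.1 and 61.3 CPM in untreated mice, and CD4 T cells 31.3 and 60.4 CPM in inhibitor-treated mice against 44.6 and 47.1 CPM in untreated mice, while CD8 T cells had 9.79 to 17.3 CPM. The count ratio of Il1r2 to Il1b was 5.41 and 3.56 in regulatory T cells of inhibitor-treated mice and 1.72 and 3.90 in those of untreated mice, and 1.87 and 3.63 in inhibitor-treated mice against 1.70 and 2.67 in untreated mice in CD4 T cells. In CD8 T cells the same ratio was 0.760 and 0.568 in inhibitor-treated mice and 0.714 and 0.885 in untreated mice, near the 0.807 and 0.734 in inhibitor-treated mice against 0.756 and 0.60 in untreated mice over all cells together. Such a ratio was not particular to helper T cells. It was 0.472 and 1.18 in inhibitor-treated mice and 2 and 1.39 in untreated mice in NK cells. It was 0.263 and 1.5 in inhibitor-treated mice against 1.235 and 1.52 in untreated mice in gamma-delta T cells, and 1.375 and 1.81 in inhibitor-treated mice against 0.882 and 0.797 in untreated mice in plasmacytoid dendritic cells.

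Il1r1, the signalling receptor, had its highest levels, among the tested classes, in T cells. Gamma-delta T cells had 50.3 and 137 CPM in inhibitor-treated mice and 67.1 and 127 CPM in untreated mice, and CD4 T cells 28.8 and 56.0 CPM in inhibitor-treated mice against 35.0 and 47.0 CPM in untreated mice. These ranges overlapped each other, and that of CD4 T cells lay above the next tested class, regulatory T cells, at 5.58 and 12.6 CPM in inhibitor-treated mice and 5.71 and 15.3 CPM in untreated mice. The untested cluster led by Apoe had 7.21 and 18.4 CPM in inhibitor-treated mice and 11.15 and 30.4 CPM in untreated mice, a range that overlapped that of CD4 T cells. Neutrophils, which held most Il1b, Il1rn and Il1r2 counts, had 0.531 and 1.13 CPM of Il1r1 in inhibitor-treated mice and 1.08 and 0.720 CPM in untreated mice. Counts of Il1r1 were found in 18.1% and 28.8% of gamma-delta T cells of inhibitor-treated mice and in 22.4% and 29.0% of those of untreated mice, against at most 0.952% of B-lineage cells in any mouse.

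Among the 4 clusters of CD4 T cells, Il1r1 and Il1r2 were highest in a cluster led by Nrgn, Rgs16, Lta and Nr4a3. Il1r1 had 76.3 and 103 CPM there in inhibitor-treated mice and 67.2 and 94.5 CPM in untreated mice, and Il1r2 had 124 and 165 CPM in inhibitor-treated mice against 113 and 130 CPM in untreated mice. In the largest CD4 cluster, led by Cxcr6, Il1r1 had 25.4 and 56.0 CPM in inhibitor-treated mice and 34.0 and 48.3 CPM in untreated mice. The cluster led by Tcf7, Slamf6 and Il7r had the lowest Il1r2 in every mouse but inhibitor-treated mouse 1. It had 20.3 and 6.55 CPM in inhibitor-treated mice and 18.7 and 21.3 CPM in untreated mice. In inhibitor-treated mouse 1 the remaining CD4 cluster was lower, at 17.5 CPM.

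CD4 T cells with an Il1r1 count were compared with those without one inside each mouse, 50 and 182 against 536 and 1088 cells in inhibitor-treated mice and 110 and 221 against 981 and 1379 cells in untreated mice. Il17a, the T helper 17 cytokine, had 226 and 161 CPM in the cells with Il1r1 of inhibitor-treated mice and 118 and 307.6 CPM in those of untreated mice, against 11.9 and 90.1 CPM and 29.1 and 62.5 CPM in the cells without Il1r1. Il17a was higher with Il1r1 in 4 of 4 mice, as were Csf2, which encodes GM-CSF, and Il1r2. Il18r1 was also higher in 4 of 4 mice. It had 272 and 290 CPM in cells with Il1r1 in inhibitor-treated mice and 279 and 277 CPM in untreated mice, against 265 and 246 CPM and 252 and 259.8 CPM without it. Ccr6, Il23r, Il18rap and Foxp3, the regulatory T cell factor, were higher in 3 of 4 mice, Ifng and Tbx21, of T helper 1 cells, in 2, and Gata3 and Il1rl1 in 0. Cells with a count were deeper, with medians of 8362 to 11883 counts against 6750.5 to 7326.5 counts, and no test was made because the receptor's own count chose the cells. In gamma-delta T cells 13 and 15 cells with Il1r1 were set against 59 and 37 without it in inhibitor-treated mice, and 34 and 60 against 118 and 147 in untreated mice. Il17a had 260.1 and 241 CPM in those with Il1r1 of inhibitor-treated mice and 366 and 632 CPM in those of untreated mice, against 287 and 488 CPM and 253 and 460.3 CPM without it. It was higher with Il1r1 in 2 of 4 mice. Csf2 was higher in 2 of 4 mice, Ifng in 4 and Gata3 in 0.

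**Figure D3:**
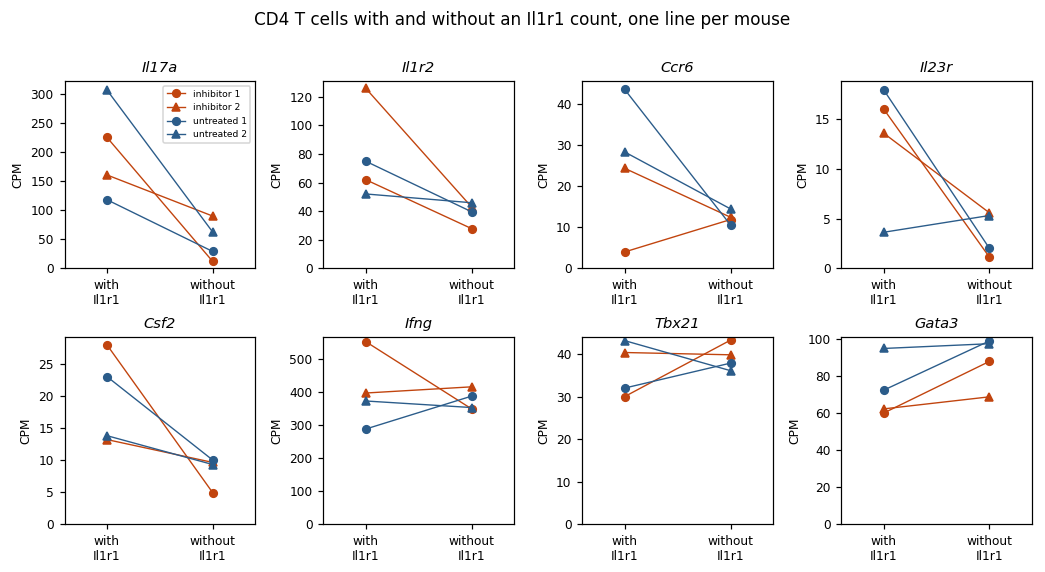
CPM (y axis) of 8 genes in CD4 T cells with an Il1r1 count (left) and without one (right), with 1 line per mouse. The lines of Il17a, Il1r2 and Csf2 fall to the right in all 4 mice, whereas those of Gata3 rise.

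Il1rap, the accessory chain that IL-1R1 needs to signal, stayed at or below 25.3 CPM in every tested class. It was highest in inflammatory neutrophils, at 16 and 25.3 CPM in inhibitor-treated mice and 12.5 and 22.7 CPM in untreated mice, above the immature stage at 5.78 to 10.8 CPM over the 4 mice. CD4 T cells had 6.05 and 6.08 CPM in inhibitor-treated mice and 4.80 and 3.55 CPM in untreated mice.

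Il1rl1, which encodes the IL-33 receptor ST2, was highest in regulatory T cells among the tested classes, at 44.6 and 61.6 CPM in inhibitor-treated mice and 78.1 and 47.9 CPM in untreated mice. CD4 T cells followed with 13.1 and 9.82 CPM in inhibitor-treated mice against 24.5 and 10.5 CPM in untreated mice, and the ranges of the 2 classes did not overlap. Within regulatory T cells, Gata3 had 183 and 211 CPM in cells with an Il1rl1 count of inhibitor-treated mice and 244 and 246 CPM in those of untreated mice, against 145 and 92.3 CPM and 136 and 144 CPM in cells without one, higher in 4 of 4 mice. Other genes were also compared in this way in regulatory T cells and are not given here. The whole class had 70 and 131 cells in inhibitor-treated mice and 170 and 242 in untreated mice, and only part of them had an Il1rl1 count. No test was made because the receptor's own count chose the cells, and the part of depth per cell was not tested. The ligand Il33 itself had 49 counts in all kept cells together.

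Casp1 was found in all classes, and the ranges of most neighbouring classes in the order of its level overlapped. CD8 T cells had 95.7 and 65.1 CPM in inhibitor-treated mice and 84.7 and 83.5 CPM in untreated mice, and monocytes and macrophages 101 and 80.7 CPM in inhibitor-treated mice against 49.8 and 88.1 CPM in untreated mice. Neutrophil precursors were lowest among the stages, at 18.3 and 23.1 CPM in inhibitor-treated mice and 15.9 and 21.6 CPM in untreated mice, and the other stages had 41.3 to 67.0 CPM.

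The cells that held each gene's counts differed between the mice, as did the neutrophil shares. Neutrophils held 96.8% and 84.5% of Il1b counts in inhibitor-treated mice and 71.4% and 75.2% in untreated mice, and inflammatory neutrophils alone 79.0% and 67.2% in inhibitor-treated mice against 53.6% and 63.0% in untreated mice. Neutrophils held 95.7% and 84.8% of Il1rn counts in inhibitor-treated mice against 79.1% and 80.6% in untreated mice, and 97.1% and 88.2% of Il1r2 counts against 83.8% and 78.8%. Microglia held 86.4% and 88.5% of Il1a counts in inhibitor-treated mice and 71.6% and 40.8% in untreated mice, where the cluster led by Apoe held 21% and 42.8%. CD4 T cells held 60.3% and 80.1% of Il1r1 counts in inhibitor-treated mice and 64.2% and 58.6% in untreated mice. Neutrophils held 46.0% and 18.0% of Il1rl1 counts in inhibitor-treated mice and 5.97% and 7.90% in untreated mice. Their level of Il1rl1 was low, at 3.9 and 3.3 CPM in inhibitor-treated mice and 3.32 and 2.8 CPM in untreated mice. Of the counts of all genes, neutrophils held 64.1% and 36.15% in inhibitor-treated mice and 22.8% and 23.1% in untreated mice. Regulatory T cells held 9.55% and 21.3% of Il1rl1 counts in inhibitor-treated mice and 19.8% and 27.5% in untreated mice. CD4 T cells held 19.4% and 34.4% of Il1rl1 counts in inhibitor-treated mice and 43.55% and 36.6% in untreated mice.

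**Figure D4:**
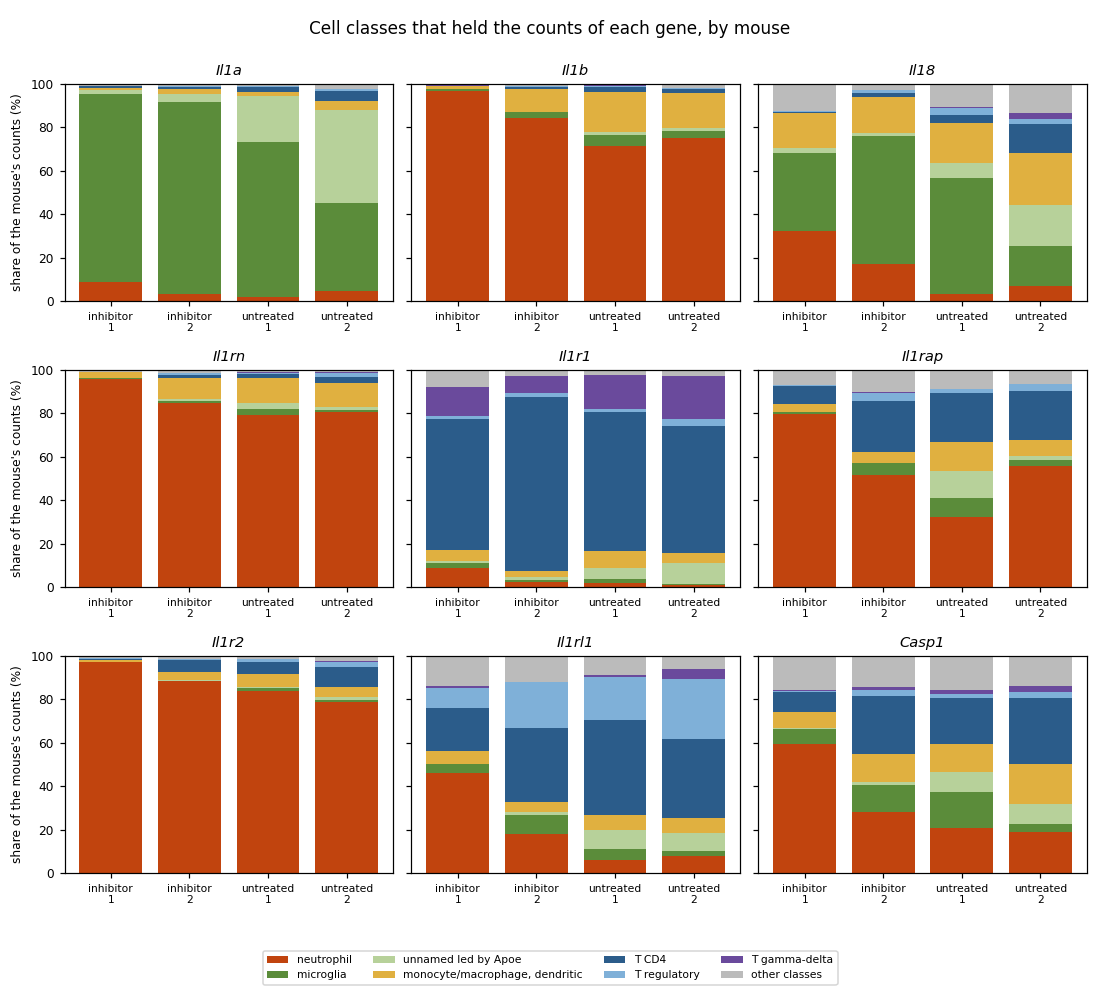
Share of each gene's counts (y axis, percent) held by cell classes (colours) in each mouse (x axis, inhibitor-treated mice left of untreated mice). Neutrophils hold 71.4% to 96.8% of Il1b counts, microglia 40.8% to 88.5% of Il1a counts and CD4 T cells 58.6% to 80.1% of Il1r1 counts.

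The design asks whether the inhibitor moved these levels. In all kept cells together, Il1b had 564 and 356 CPM in inhibitor-treated mice and 233 and 240 CPM in untreated mice, Il1rn 80.7 and 58.3 CPM in inhibitor-treated mice against 39.8 and 29.0 CPM in untreated mice, and Il1r2 455 and 262 CPM in inhibitor-treated mice against 177 and 144 CPM in untreated mice. Both inhibitor-treated mice lay above both untreated mice for these 3 genes and for Il1rap, as they did for 13% of the 21266 genes tested. They lay below both untreated mice for Il1rl1 and Casp1, as they did for 40.3% of those genes. Il1rl1 had 5.43 and 6.64 CPM in inhibitor-treated mice against 12.7 and 8.20 CPM in untreated mice. Casp1 had 48.2 and 50.3 CPM in inhibitor-treated mice against 57.7 and 50.5 CPM in untreated mice. Their log2 folds fitted by edgeR were -0.59 for Il1rl1 and 0.07 for Casp1. The log2 fold was 1.19 ± 0.31 for Il1b (SE; 95% interval 0.42 to 1.96), 1.24 ± 0.28 for Il1rn and 1.4 ± 0.35 for Il1r2, and the adjusted p was 0.446 for each in edgeR's quasi-likelihood test with Benjamini-Hochberg adjustment. Il1rap had a log2 fold of 0.56 ± 0.20 with an adjusted p of 0.448 by edgeR. None of the 9 genes passed the threshold of 0.05, nor did any gene (0%), while 4 had an unadjusted p under 0.05, as had 10.3% of all genes. DESeq2 called Il1b (adjusted p = 0.0104), Il1rn (0.00586) and Il1r2 (0.00543), where it called 2.16% of all genes; over 14 alternatives the adjusted p of these 3 genes ran from 0.00543 to 0.846. A fit without 1 mouse leaves its group with 1 mouse, takes the spread from the 2 mice of the other group and assumes that the lone mouse varies like them, here and below. Without inhibitor-treated mouse 2 edgeR called the same 3 genes, and 7.9% of all genes, with log2 folds of 1.59 for Il1b, 1.57 for Il1rn and 1.84 for Il1r2; without inhibitor-treated mouse 1, which had the highest neutrophil share, the folds were 0.67, 0.85 and 0.79.

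The folds in all cells stand beside neutrophil shares that also differed between the groups, and the part of those shares in the fitted folds was not tested. With the level of each class held at its mean over the 4 mice, so that only the classes' shares of counts differed, the log2 ratio of group means was 0.86 for Il1b, 0.94 for Il1rn and 0.96 for Il1r2, against 0.96, 1.01 and 1.16 as observed. These are ratios of CPM, whose median over all tested genes was -0.22 (log2); under the scaling of edgeR, which the fitted folds use, that median was -0.03. In all cells but neutrophils none of the 9 genes passed edgeR's threshold (0% of all genes) or that of DESeq2, and Il1rl1 alone had an unadjusted p under 0.05 (8.17 and 8.53 CPM in inhibitor-treated mice against 15.5 and 9.82 CPM in untreated mice; log2 fold -0.62 ± 0.24, adjusted p = 0.918), as had 5.19% of all genes.

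Within neutrophils none of the 9 genes passed the threshold by edgeR or by DESeq2. Il1b had 851 and 833 CPM in inhibitor-treated mice and 730 and 780 CPM in untreated mice, with a log2 fold of 0.13 ± 0.10 (95% interval -0.10 to 0.37). Both inhibitor-treated mice were higher, as they were for 18.7% of all genes. Il1rn had 121 and 137 CPM in inhibitor-treated mice against 138 and 101 CPM in untreated mice (log2 fold 0.09 ± 0.16, interval -0.28 to 0.46), and Il1r2 had 689 and 639 CPM in inhibitor-treated mice against 648 and 490 CPM in untreated mice (0.20 ± 0.14, interval -0.12 to 0.52). The adjusted p of the 9 genes ran from 0.98 to 0.995 by edgeR, which called 0% of all genes, and a p that misses the threshold does not show that the groups are alike. Without untreated mouse 1, with untreated mouse 2 alone in its group, edgeR called Il1r2 in neutrophils (log2 fold 0.41, adjusted p = 0.0136, against a range of 0.0136 to 1 over 14 alternatives), where it called 2.41% of all genes. In the inflammatory stage the log2 folds were 0.17 ± 0.12 for Il1b and 0.21 ± 0.12 for Il1r2, with both inhibitor-treated mice above both untreated mice, as they were for 21.6% of all genes.

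Il18 was the single member with an unadjusted p under 0.05 in all neutrophils, as had 4.89% of all genes. It had 2.96 and 3.77 CPM in inhibitor-treated mice and 1.26 and 1.52 CPM in untreated mice, from 117 and 80 counts against 14 and 19 counts, with a log2 fold of 1.24 ± 0.36 (edgeR, adjusted p = 0.98). In the inflammatory stage it had 5.77 and 11.3 CPM from 42 and 38 counts in inhibitor-treated mice and 1.08 and 2.15 CPM from 2 and 5 counts in untreated mice, with a log2 fold of 2.27 ± 0.74 (adjusted p = 0.870), where 5.16% of all genes had an unadjusted p under 0.05. Microglia hold far more Il18, and the summed level of their 10 markers in inflammatory neutrophils was 195 and 155 CPM in inhibitor-treated mice and 499 and 266 CPM in untreated mice. All 10 were detected in every mouse, and their part in the Il18 values was not tested.

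Microglia showed Il1a at 443 and 482 CPM in inhibitor-treated mice and 384 and 347 CPM in untreated mice. Both inhibitor-treated mice were higher, as for 17.3% of all genes, and the log2 fold was 0.33 ± 0.19 (95% interval -0.09 to 0.75). Il18 had a log2 fold of 0.55 ± 0.29 (interval -0.10 to 1.19). Il1b had 84.4 and 109 CPM in inhibitor-treated mice and 95.8 and 236 CPM in untreated mice (log2 fold -0.77 ± 0.38), and Il1r2 had 15.5 and 13.2 CPM in inhibitor-treated mice against 18.2 and 49.3 CPM in untreated mice (-1.20 ± 0.48). The groups overlapped for Il1b and did not for Il1r2, for which both inhibitor-treated mice were lower, as for 16.6% of all genes, and untreated mouse 2 was the highest for both. Without it the log2 folds were 0.019 for Il1b and -0.34 for Il1r2. The adjusted p was 0.995 for each of these 4 genes by edgeR, which called 0% of all genes. Il1r2 alone had an unadjusted p under 0.05, as had 4.12% of all genes. The 12 neutrophil markers, all detected in 3 of 4 mice and 11 in the other, summed in microglia to 3526 and 1298 CPM in inhibitor-treated mice and 1949 and 1620 CPM in untreated mice, and the 8 T cell markers to 132 and 168 CPM in inhibitor-treated mice against 383 and 434 CPM in untreated mice; their part in these values was not tested.

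In CD4 T cells Il1r1 had a log2 fold of 0.08 ± 0.30 (95% interval -0.62 to 0.77), and in regulatory T cells Il1rl1 had one of -0.20 ± 0.38 (interval -1.05 to 0.65), with overlapping groups in both. The ratio of Il1r2 to Il1r1 counts in CD4 T cells was 1.08 in each inhibitor-treated mouse and 1.28 and 1.00 in the untreated mice (two-sided exact permutation test, p = 1). Il1r2 in regulatory T cells, at 128 and 71.2 CPM in inhibitor-treated mice and 59.1 and 61.3 CPM in untreated mice, did not overlap between the groups (both inhibitor-treated mice were higher for 15.3% of all genes) and had a log2 fold of 0.72 ± 0.35 (edgeR adjusted p = 1.00). Il18 in CD4 T cells rested on 1 and 8 counts in inhibitor-treated mice and 15 and 36 counts in untreated mice (log2 fold -2.02 ± 0.73, edgeR adjusted p = 1.00), where 3.32% of all genes had an unadjusted p under 0.05. Microglia markers summed in CD4 T cells to 150 and 147 CPM in inhibitor-treated mice and 241 and 178 CPM in untreated mice, the same direction, and their part in that value was not tested.

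Over the 16 classes and stages, 94 of 144 pairs of a gene and a class passed the filter on low counts, and edgeR called 0 of the 94 after adjustment within each class. It called 0% of all genes in every class but neutrophil precursors, with 0.00991%, and 0.000581% of the gene and class pairs together. DESeq2 also called 0 of them. Of the 94 pairs, 3 had an unadjusted p under 0.05, namely Il18 in inflammatory neutrophils, Il18 in CD4 T cells and Il1r2 in microglia, near the 4.66% of all pairs. By gene, Il1b passed the filter in 16 classes with folds above 0 in 8, Il1r2 in 16 with 10 above 0, Casp1 in 16 with 6, Il1rn and Il1rl1 in 10 each with 6 and 3, Il18 in 8 with 4, Il1a in 7 with 1, Il1rap in 6 with 2 and Il1r1 in 5 with 2.

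**Figure D5:**
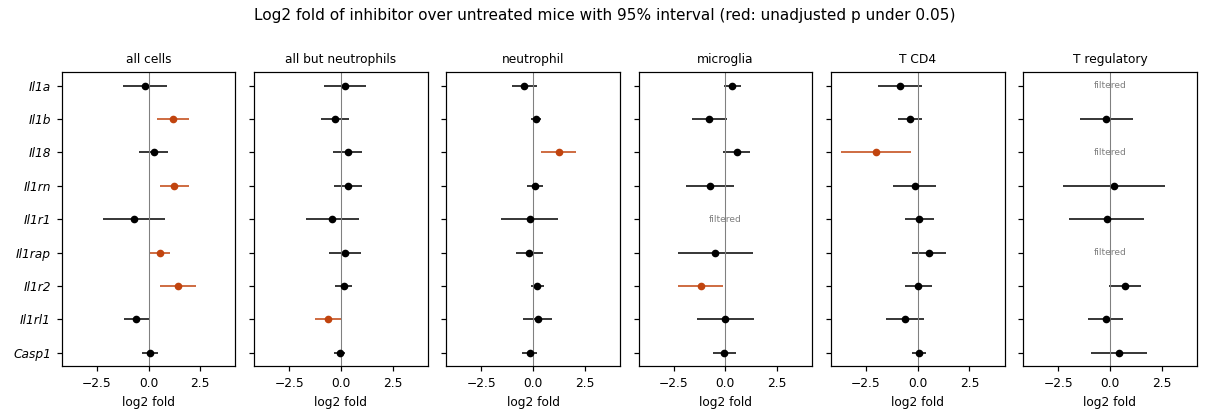
Log2 fold of inhibitor-treated over untreated mice with its 95% interval (x axis) for the 9 genes (y axis) in all cells, all but neutrophils, all neutrophils, microglia, CD4 T cells and regulatory T cells, with an unadjusted p under 0.05 in red and genes removed by the count filter named as filtered. Il1b, Il1rn and Il1r2 lie at 1.19 to 1.4 in all cells and at 0.09 to 0.20 in neutrophils.

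The difference between classes was tested as an interaction, with the mouse as a block, in 4 pairs of classes. None of the 9 genes passed in any pair by edgeR, which called 0% of all genes in each. Between neutrophils and microglia the fold in neutrophils exceeded that in microglia by 0.84 ± 0.37 (log2) for Il1b, 0.85 ± 0.36 for Il1rn and 1.31 ± 0.50 for Il1r2, and fell short of it by 0.71 for Il1a (-0.71 ± 0.29). These 4 genes had an unadjusted p between 0.0228 and 0.0453, as had 4.48% of all genes below 0.05, and an adjusted p of 1. Between the other pairs no member had an unadjusted p under 0.05.

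The mature stage joined 2 clusters in which Il1b differed in opposite directions. This split was chosen after its values were seen, so that log2 folds fitted by edgeR are given as a description, with no p. In the larger cluster, led by Retnlg and Clec4d, Il1b had 498 and 533 CPM in inhibitor-treated mice and 362 and 388 CPM in untreated mice (log2 fold 0.39). In the smaller cluster, led by Stfa2 and Cstdc5, it had 473 and 263 CPM in inhibitor-treated mice and 666 and 688 CPM in untreated mice (log2 fold -0.93). The groups did not overlap in either cluster. Both inhibitor-treated mice were higher for 21.7% of all genes in the larger cluster, and both were lower for 13.8% in the smaller. Il1r2 in the larger cluster had 830 and 757 CPM in inhibitor-treated mice and 768 and 553 CPM in untreated mice, and in the smaller one 750 and 708 CPM in inhibitor-treated mice against 775 and 851 CPM in untreated mice, while Il1rn overlapped between the groups in both.

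Of 37 other genes listed for the pathway 33 were in the matrix, and edgeR called none of them in any of the 19 fits. Over the 16 classes and stages 20 of 418 gene and class pairs had an unadjusted p under 0.05, 9 higher and 11 lower in inhibitor-treated mice, beside the 4.66% of all pairs, and DESeq2 called 0. In all cells 5 of 31 did, beside 10.3% of all genes, 4 of them higher. These were Irak3, Il1f9, Mefv and Il18rap. Irak3, whose product inhibits signalling at the receptor complex, had 37.6 and 23.6 CPM in inhibitor-treated mice against 15.6 and 16.8 CPM in untreated mice. Il1f9, which encodes IL-36γ, had 220 and 125 CPM in inhibitor-treated mice against 88.6 and 84.1 CPM in untreated mice. Mefv, which encodes pyrin, had 15.3 and 9.65 CPM in inhibitor-treated mice against 6.92 and 7.46 CPM in untreated mice. Il18rap, a chain of the IL-18 receptor, had 116 and 118 CPM in inhibitor-treated mice against 99.9 and 89.2 CPM in untreated mice. DESeq2 called Irak3 and Il1f9 there, as it called 2.16% of all genes. In all neutrophils 2 of 30 did, beside 4.89% of all genes, both lower. These were Nlrc4, an inflammasome sensor, at 2.35 and 1.98 CPM in inhibitor-treated mice against 4.76 and 6.32 CPM in untreated mice (log2 fold -1.37 ± 0.30, edgeR adjusted p = 0.98), and Casp8 at 20.7 and 15.3 CPM in inhibitor-treated mice against 26.4 and 24.6 CPM in untreated mice.

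Among the tested classes, several other pathway genes were highest where members were. Il1f9 was highest in inflammatory neutrophils, at 640 and 567 CPM in inhibitor-treated mice and 620 and 716 CPM in untreated mice, ahead of mature neutrophils without overlap. The inflammasome sensor Aim2, at 229 and 190 CPM in inhibitor-treated mice and 182 and 149 CPM in untreated mice, and the pore protein gene Gsdmd were highest in microglia. Il18r1, the IL-18 receptor, was highest in gamma-delta T cells, at 323 and 349 CPM in inhibitor-treated mice and 374 and 281 CPM in untreated mice, the class in which Il1r1 was also highest.

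The genes most like each member were taken by Pearson correlation of log2(CPM + 1) over 64 sums of a class and mouse, which share 1 library and 4 mice, and are given as a description. Il1a went with C1qb (r = 0.913), Csf1r and Mertk, which microglia use, Il1b with Wfdc17 (0.922), Ccl6 and Clec7a, and Il1rn with Lilra6 (0.90), Gm14548 and Pira2. Il1r2 went with Gnai2 (0.919), Rasgrp4 and Nadk, Il1r1 with Ramp3 (0.848), Il17re and B3galt2, and Il1rl1 with Ncmap (0.732), Lrrc32 and Gm13522. Il18 went with Atf3 (0.793), Spint1 and Sult1a1, and Il1rap with Litaf (0.711), Klhl2 and 2310067P03Rik. Casp1 went with Ifi204 (0.692), Casp4 and Gnpda1, and Casp4 lies 1562 bases from it. Among the members, Il1rn and Il1r2 were the most alike pair (0.873), and the neighbours Il1a and Il1b had r = 0.428.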

How the data were processed

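Hashtag-pooled CD45+ spinal cord cells were captured on BD Rhapsody and amplified by TAS-Seq, per the labels' protocols. The authors deposited 1 matrix of counts per gene and cell, assigned to mice by hashtag; per the submitters' processing notes the build was GRCm38. Aligner and counter: not given in the sources used here. No label states if counts are of molecules or of reads.

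Cells with over 20% mitochondrial counts and doublet calls (by the share of multi-hashtag columns among the 50 nearest cells) were removed. The remaining cells were scaled to 10000 counts, clustered on 2000 variable genes without the members and pathway genes (40 components, 20 neighbours, Leiden resolution 1.0, leidenalg 0.10.2) and named by marker lists. Counts were summed per mouse and class with at least 30 cells in every mouse, printed as CPM, and tested with edgeR 4.0.16 (filterByExpr, TMM, quasi-likelihood test, Benjamini-Hochberg within a class, threshold 0.05); DESeq2 1.42.0 was an alternative. Scripts were tested on simulated data. Intervals are 95% and cover counting error or the fit only; n = 2 mice per group. No source says whether mice of a number share a cage or day. The 9 genes, the pathway list, the markers and the tests were chosen with earlier results of these data known. The genes named are the 9 members, the pathway genes called or else those with the smallest p in a fit (up to 4), and the 3 most correlated genes of each member; the split of the mature stage and the genes compared in cells with a receptor count were chosen after values were seen. Promoter sequences are from RefSeq (GRCm38.p6) and positions from GENCODE.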

Additional observations from a re-analysis of the deposited data

How the results depend on the processing

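Over 14 alternatives, 18 single folds gave 244 values, of which 225 kept direction and side of the threshold, 7 passed it and 12 changed sign. The counts of called members stayed at 0 except within classes without untreated mouse 1 (1, Il1r2 in neutrophils) and in all cells by DESeq2 (3) and without inhibitor-treated mouse 2 (3, log2 folds of 1.59 for Il1b, 1.57 for Il1rn and 1.84 for Il1r2; by DESeq2 1.21, 1.26 and 1.42); leaving out each mouse in turn gave 0 to 1 within classes, 0 in stages and 0 to 3 in all cells. In these fits the lone mouse of a group was assumed to vary like the other group. With cells thinned to 2000 counts, folds turned to -0.10 for Il1b and -0.11 for Il1rn in neutrophils, -0.17 for Il1r1 in CD4 T cells and 0.0039 for Il1rl1 in regulatory T cells, and Leiden resolution 0.5 turned Il1b in microglia to 0.020; the cause was not tested. With a mouse left out, the ranges were -0.11 to 0.32 for Il1rn in neutrophils, -1.30 to 0.019 for Il1b in microglia, -0.52 to 0.46 for Il1r1 in CD4 T cells and -0.52 to 0.17 for Il1rl1 in regulatory T cells. With a mouse left out, the log2 difference between groups ran from -0.31 to 0.23 for the ratio of Il1rn to Il1b in neutrophils and from -0.24 to 0.11 for that of Il1r2 to Il1r1 in CD4 T cells. By the mean over cells, 8 of 9 genes kept their highest class (Casp1 moved to microglia), and Il1b in inflammatory neutrophils was 4294 on the CPM scale. The replicate block changed no call. The labels name no pairing, so the numbers were not taken as pairs. Deviations of same-numbered mice had a correlation over genes of 0.0199 in all cells and -0.0238 in neutrophils. With 1 difference between mice per group, this correlation cannot decide whether mice of a number share a cage or day. Alternatives without an inflammatory stage, Leiden resolution 0.5 and clustering with the members, gave no value for it. With 2 mice per group and low counts of Il18, Il1rap and Il1rl1 outside their main classes, modest differences were not detectable.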
